A study of Mus musculus with 13 samples.

Results

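Liver sinusoidal endothelial cells (LSEC) were set against hepatic stellate cells held in culture for 1 day (HSC day 1) on 5 arrays of a series of 13, namely the 3 arrays titled LSEC and the 2 titled HSC, one-day cultured. The arrays are Affymetrix mouse gene arrays hybridised with labelled RNA of liver cells from naive C57BL/6 mice aged 6 to 10 weeks, with no transgene or treatment named. The LSEC were freshly sorted, whereas the HSC had been kept in DMEM with fetal bovine serum. Freshly sorted hepatocytes and Kupffer cells (3 arrays each) added to the estimate of the spread, and HSC cultured for 7 and 14 days (1 array each) are given as values with no test. HSC were analysed here only after culture, so that cell type and 1 day in culture cannot be told apart in any difference below. The labels call the arrays of both groups biological replicates without saying whether animals were pooled or shared, and the p-values measure the spread between these arrays.

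LSEC form the fenestrated lining of the liver sinusoids, lack an organised basement membrane, and clear waste macromolecules and immune complexes from blood through scavenger and Fc receptors. HSC lie behind that lining in the space of Disse, store retinoid in lipid droplets in the healthy liver, and turn on plastic into contractile, matrix-producing myofibroblast-like cells. The cell types exchange angiocrine, BMP, Notch, PDGF and endothelin signals, and HSC serve as the pericytes of the sinusoid.

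Each value below is a summarised intensity of 1 probe set per gene on the authors' linear scale, where array medians lay between 216.5 and 232.9. The file gives no detection calls, so values of about 100 to 250 may lie at background, and intensities of different genes are not compared because their probes differ. Differences are LSEC minus HSC day 1 on the log2(intensity + 83) scale, so positive values mean higher in LSEC, negative values mean higher in HSC day 1, and folds of low genes are understated. The fit was repeated with a pseudocount of 1 and with the pooled median intensity as pseudocount in place of 83. A gene was called if limma gave a Benjamini-Hochberg adjusted p below 0.05 over all 12081 genes tested and the difference was at least 1 in either direction. In bulk RNA, fewer cells of a type and less RNA per cell cannot be told apart.

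LSEC and HSC day 1 were the most similar pair of the 4 populations by correlation over all 25194 probe sets. Pearson's r between their arrays was 0.929 to 0.935, against 0.761 to 0.867 for every other pair of these populations. Arrays of LSEC correlated at 0.990 to 0.996 among themselves and the HSC day 1 pair at 0.994. Some arrays stood apart within their group for particular genes. LSEC replicate 3 was the lowest LSEC array for 439 of the 633 genes called higher in LSEC, with a median of 82.2% of the mean of replicates 1 and 2. Without it, 722 genes were higher in LSEC and 688 in HSC day 1. The HSC day 1 arrays held hepatocyte transcripts that the LSEC arrays did not, with more in replicate 1 (values below).

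Of the 12081 genes, 633 were higher in LSEC (5.24%) and 677 were higher in HSC day 1 (5.6%). These shares are the background for the list counts below, and counts of a few genes may lie near them. The arrays of the groups did not overlap for 69% of all genes, so non-overlap alone says little about a gene here. All 633 genes higher in LSEC and 675 of the 677 higher in HSC day 1 had arrays that did not overlap, the exceptions being Xdh and Slc6a9, which both lost their call with no filter, in a fit of the 5 arrays alone and without any single array of LSEC replicates 1 and 2 and the HSC day 1 pair. The differences were larger on the HSC side. Only 8 genes were higher in LSEC by 3 or more on the log2 scale and 0 by 4 or more, whereas 78 genes were higher in HSC day 1 by at least 3 and 29 by at least 4. The median called difference was 1.37 toward LSEC and -1.59 toward HSC day 1, and the median over all genes was 0.03. Among genes higher in LSEC, 476 (75.2%) had their highest mean of the 4 populations in LSEC, 116 in Kupffer cells and 41 in hepatocytes. Among genes higher in HSC day 1, 431 (63.7%) were highest in HSC day 1, 132 in hepatocytes and 114 in Kupffer cells.

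**Figure D1:**
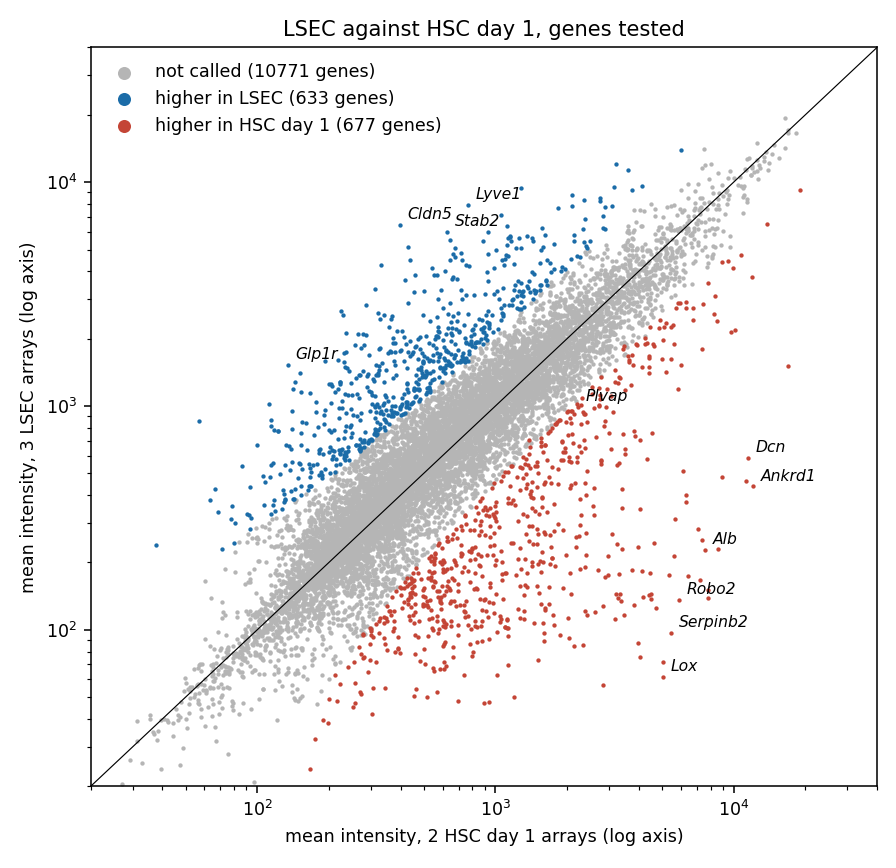
Mean intensity in 3 LSEC arrays against mean intensity in 2 HSC day 1 arrays, both on log axes, for the genes tested, with 633 genes called higher in LSEC in blue, 677 higher in HSC day 1 in red and the rest in grey. The red points reach farther from the diagonal (up to Lox at -5.15) than the blue points (up to Cldn5 at 3.73).

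The marker genes of the comparison were as follows. Cldn5, a tight junction claudin of endothelium, measured 7171, 7577 and 4574 in LSEC and 428 and 366 in HSC day 1. Lyve1, a hyaluronan receptor of sinusoidal and lymphatic endothelium, measured 8384, 7826 and 7530 in LSEC and 812 and 726 in HSC day 1. Both were far higher in every LSEC array, with differences of 3.73 (SE 0.188, limma adjusted p = 1.3e-08) for Cldn5 and 3.23 (SE 0.147, limma adjusted p = 5.6e-09) for Lyve1. Serpinb2, a plasminogen activator inhibitor, measured 121, 86.8 and 81.2 in LSEC and 4962 and 5941 in HSC day 1. Robo2, a receptor for Slit guidance cues, measured 156, 143 and 110 in LSEC and 5551 and 6210 in HSC day 1. Their LSEC values lay at the low end of the scale and near those of hepatocytes and Kupffer cells, and the differences were -4.95 (SE 0.116, limma adjusted p = 4.2e-11) for Serpinb2 and -4.77 (SE 0.122, limma adjusted p = 6e-11) for Robo2. Neither HSC marker held its day 1 level in longer culture, as Serpinb2 measured 960 at day 7 and 394 at day 14, and Robo2 measured 1051 and 352.

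After Cldn5, the largest differences toward LSEC were those of Rasip1 (3.27), Oit3 (3.25), Lyve1, St8sia4 (3.16), Plekhg1 (3.12), Prkch (3.10) and Stab2 (3.07). Rasip1, a Rap1 and Ras effector of vessel lumen formation, measured 5174, 5582 and 2071 in LSEC and 318 and 347 in HSC day 1. St8sia4, a polysialyltransferase, measured 2808, 2663 and 2508 in LSEC and 235 and 213 in HSC day 1, so its LSEC arrays lay close together where those of Rasip1 did not. The others among the 15 were the fatty acid carrier Fabp4 (2.97), coagulation factor F8 (2.94), Cyyr1 (2.88), the atypical chemokine receptor Gpr182 (2.86), the transcription factor Sox7 (2.82), the secreted vessel protein Egfl7 (2.81) and the incretin receptor Glp1r (2.80). Glp1r measured 1557, 2153 and 861 in LSEC but 130 and 139 in HSC day 1, where it sat at the level of every other population. Fabp4 differed from the rest in that hepatocytes (mean 2211) came near the LSEC mean of 2823.

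Toward HSC day 1, the largest difference was that of Lox (-5.15), the lysyl oxidase that crosslinks collagen and elastin, which measured 61.5, 56.8 and 66.9 in LSEC and 5062 and 5068 in HSC day 1. Ptgs2 (-5.14), the inducible prostaglandin synthase, measured 122, 147 and 149 in LSEC and 7876 and 7657 in HSC day 1. The LSEC values of both genes lay below the array medians. Also among the 15 were the chemokine Cxcl12 (-5.07), the matricellular protein Postn (-5.04), the actin-binding protein Tagln (-4.87), smooth muscle actin Acta2 (-4.79), the decoy receptor Tnfrsf11b (-4.66), the ligand Bmp10 (-4.63), Tlcd4 (-4.58), the ankyrin repeat protein Ankrd1 (-4.54), the sphingosine phosphate receptor S1pr3 (-4.48) and Tgfb3 (-4.47). Alb (-4.62), which encodes albumin of hepatocytes, was the 1 gene of the hepatocyte list among them. The 15 genes differed among themselves in the longer cultures. Lox measured 11655 at day 7 and 11812 at day 14 and Ptgs2 measured 13292 and 13618, each above both day 1 arrays, whereas Cxcl12 measured 1420 and 879, S1pr3 measured 1070 and 233, and Alb measured 114 and 113.

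**Figure D2:**
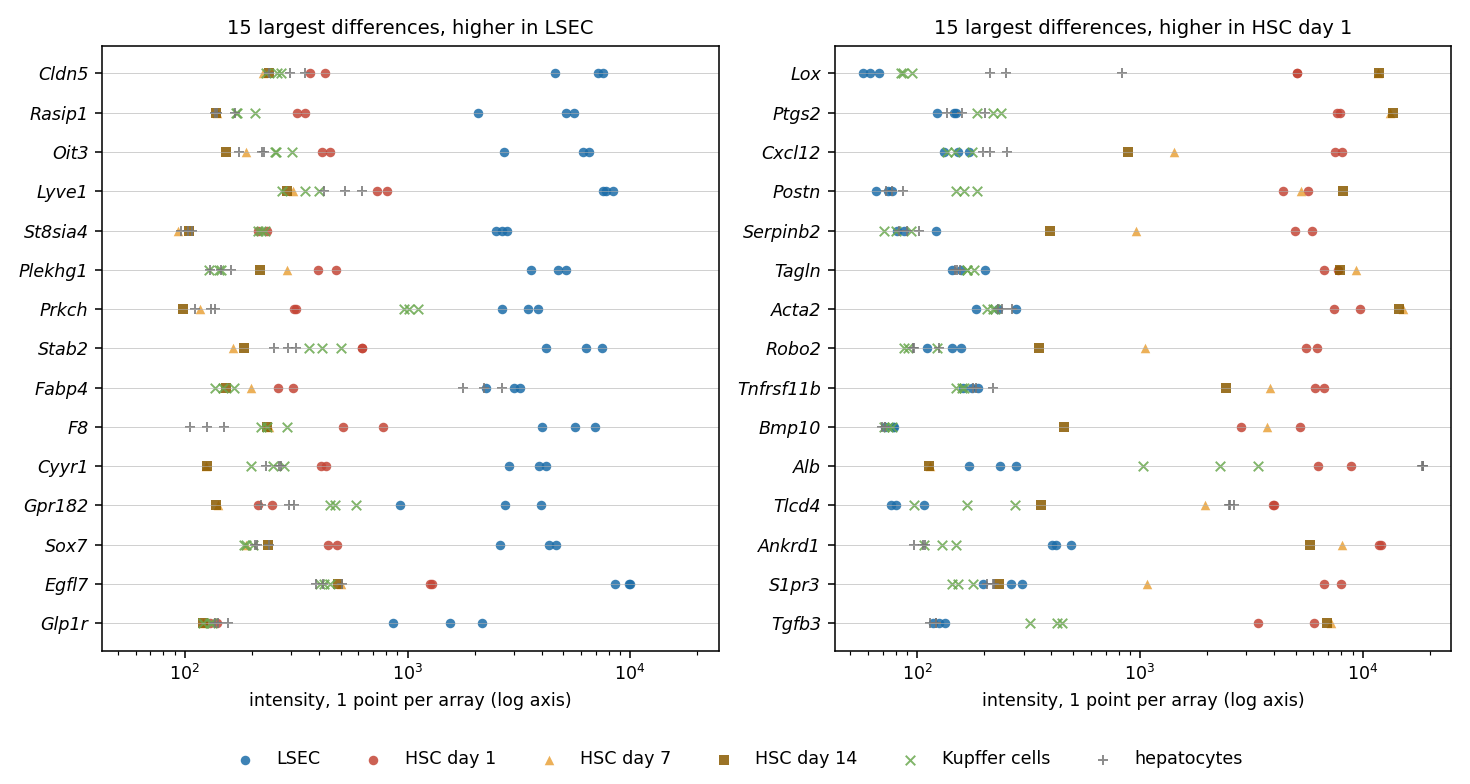
Intensity on each array (log axis) of the 15 genes with the largest difference toward LSEC (left) and toward HSC day 1 (right), 1 point per array, coloured by population and culture day. Each of the 30 genes has LSEC and HSC day 1 points that do not overlap, and LSEC replicate 3 gives the low blue point for genes such as Rasip1 (2071) and Gpr182 (924).

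The labelled cell types were checked against marker lists. Of 21 sinusoidal endothelial genes tested, 17 were higher in LSEC and 1 in HSC day 1, with a median difference of 2.42. The summed level of the list was 85671, 79478 and 55358 on the LSEC arrays, 16480 and 15692 on the HSC day 1 arrays, 8970 at day 7 and 5889 at day 14. Of 27 stellate cell genes tested, 21 were higher in HSC day 1 and 0 in LSEC, with a median of -1.60, and the summed level was 8558 to 10244 on LSEC and 65000 and 67763 on HSC day 1. Each list was thus highest in the population it names. The sinusoidal list summed to 5303 to 6636 on hepatocytes and to 24596 to 28643 on Kupffer cells, so HSC day 1 lay between these populations. Of 7 lymphocyte markers tested, 0 were called in either direction, beside 10.8% of all genes, so their number is too small to show a lack of contrast. Their summed levels were 1663 to 1790 in LSEC and 1771 to 1785 in HSC day 1. Cholangiocyte markers had 3 tested genes, Sox9 (-0.47), Cldn4 (-0.08) and Onecut1 (-0.01), none of them called.

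Hepatocyte transcripts moved with HSC day 1. Of 23 hepatocyte markers, 17 were higher in HSC day 1 and 0 in LSEC, and their summed level was 2823 to 3116 on LSEC, 33490 and 16762 on HSC day 1, 5306 at day 7, 4952 at day 14 and 254149 to 271966 on hepatocytes. Alb measured 171, 235 and 278 in LSEC, 8855 and 6285 in HSC day 1 and 18570 on average in hepatocytes. Cyp2e1, a perivenous cytochrome P450, measured 74.3, 87.9 and 93.4 in LSEC and 3340 and 1299 in HSC day 1. HSC day 1 replicate 1 was the higher for both genes, and neither stayed above the LSEC arrays at day 7 or 14. Some defining hepatocyte genes did not pass, as Cps1 (145 and 146 in HSC day 1 against a hepatocyte mean of 8293) and the nuclear receptor Hnf4a (354 and 232 against 4713) were not called, at -0.25 and -0.45. Of the 132 genes higher in HSC day 1 but highest in hepatocytes, 73 lay above every LSEC array at both day 7 and day 14 and 40 lay at or below the highest LSEC array at both. The part of hepatocyte RNA in the genes called higher in HSC day 1 was not tested.

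**Figure D3:**
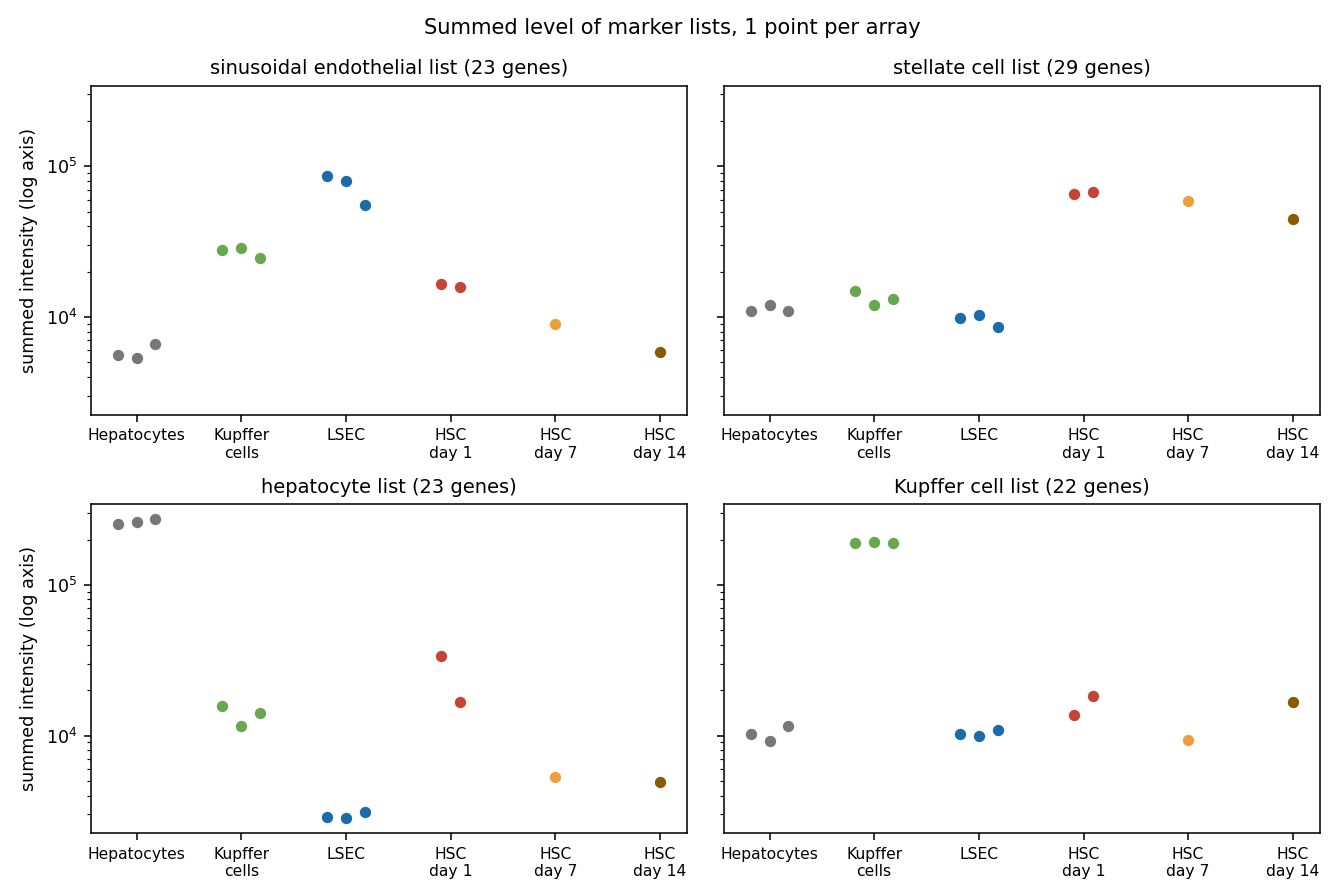
Summed intensity (log axis) of the sinusoidal endothelial, stellate, hepatocyte and Kupffer cell marker lists, 1 point per array, for the 6 labelled groups. The HSC day 1 arrays sum to 33490 and 16762 for the hepatocyte list, above the LSEC range of 2823 to 3116, and to 13793 and 18221 for the Kupffer list, above the LSEC range of 10002 to 10939.

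Macrophage transcripts showed a smaller shift the same way. Of 22 Kupffer cell markers, 9 were higher in HSC day 1 and 0 in LSEC, with a median of -0.43 and summed levels of 10002 to 10939 in LSEC, 13793 and 18221 in HSC day 1 and 188986 to 192333 in Kupffer cells. Lyz2, a lysozyme of myeloid cells, measured 551, 449 and 277 in LSEC and 2916 and 3850 in HSC day 1, a difference of -2.79. The complement subunit C1qb (-1.97) and the complement receptor Vsig4 (-1.78) were higher in HSC day 1 as well. The defining Kupffer lectin Clec4f was not called, at 180, 169 and 189 in LSEC and 212 and 245 in HSC day 1 against a Kupffer mean of 10275. Marco also stayed near the floor in both groups (0.04). Cd68 leaned toward LSEC below the size threshold (0.68), at 2818, 2735 and 4395 in LSEC and 1796 and 2196 in HSC day 1. In the reverse direction, Clec9a, a dendritic cell lectin, was the 1 gene called of 5 tested markers of monocytes, dendritic cells and neutrophils. It measured 600, 1025 and 389 in LSEC and 84 and 115 in HSC day 1. Its mean of 2696 in Kupffer cells was above both. Whether other cells carried these RNAs into either group was not tested.

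Endocytic receptors were among the sinusoidal genes higher in LSEC. Stab2, the stabilin that takes up hyaluronan and heparin, measured 7490, 6359 and 4177 in LSEC and 625 and 623 in HSC day 1. Stab1 (2.61), the mannose receptor Mrc1 (2.53) and the Fc receptor Fcgr2b (2.01) were also higher in LSEC. Fcgr2b kept a sizeable level in the stellate arrays, at 2066 and 2132 against 9412, 8762 and 8029 in LSEC, and measured 184 at day 7. Oit3 (3.25), the lectin Clec4g (2.08) and the adhesion receptor Adgrf5 (2.68) belong to the same signature. Clec4g varied among the LSEC arrays, at 3029, 2503 and 944, and its adjusted p was 0.00084. Dnase1l3 (1.66), a secreted nuclease, was higher in LSEC yet higher still in Kupffer cells (2292 on average against 1743, 893 and 1217). Ehd3, an endocytic recycling ATPase often used as a sinusoidal marker, was not called and leaned the other way, at 2003, 2663 and 1419 in LSEC and 4126 and 2705 in HSC day 1 (-0.74), and was called without HSC day 1 replicate 2 (-1.04). Fcna, a ficolin, was called against the rest of the list at 244, 243 and 233 in LSEC and 1094 and 870 in HSC day 1. Its mean of 8523 in Kupffer cells was far above both.

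Counting beyond the sinusoidal list, 5 of 21 scavenger and endocytic receptors were higher in LSEC and 2 in HSC day 1, with a median of -0.04 beside 0.03 for all genes. Of all genes, 5.24% were called toward LSEC and 5.6% toward HSC day 1. The LSEC members were Stab2, Stab1, Mrc1, Fcgr2b and Scarf1 (1.86). Lrp1, the large receptor for apolipoprotein E and protease complexes, was on the HSC side by the widest margin, at 387, 380 and 283 in LSEC and 3372 and 3397 in HSC day 1 (-3.01). It measured 6974 and 8102 in the day 7 and day 14 arrays and 9039 on average in Kupffer cells. Lrp8 (-1.32) was the other. The macrophage scavenger receptor Msr1 was not called (-0.41), with 752, 529 and 250 in LSEC overlapping 674 and 630 in HSC day 1.

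Few lysosomal genes were called on either side. Of 22 endosome and lysosome genes, 4 were higher in LSEC, 2 in HSC day 1 and 16 were not called, with a median of 0.49. Over all genes the shares were 5.24% toward LSEC and 5.6% toward HSC day 1. The 2 genes toward HSC day 1 are too few to read as a result about the list. Hexa, a subunit of hexosaminidase, measured 3157, 3826 and 3681 in LSEC and 1151 and 1420 in HSC day 1 (1.41). The cathepsins went both ways. Ctsl (1.32) and Ctsd (1.20) were higher in LSEC, while Ctsk, the collagen-degrading cathepsin, measured 167, 184 and 212 in LSEC and 1076 and 1487 in HSC day 1 (-2.32). Ctss (-1.40), a cathepsin of antigen-presenting cells with a Kupffer mean of 9707, was higher in HSC day 1 too. The asparaginyl protease Lgmn (1.16) completed the LSEC group, but was at 0.98 and uncalled without HSC day 1 replicate 1.

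Genes of the endothelial surface and its junctions followed the sinusoidal genes. Of 26 tested, 20 were higher in LSEC, 1 in HSC day 1 and 5 were not called, with a median of 1.84. The angiopoietin receptor Tek measured 4887, 4401 and 3128 in LSEC and 542 and 541 in HSC day 1 (2.73), and its partner Tie1 differed by 2.70. Pecam1 (2.22), the adhesion molecule CD31, measured 6177, 5671 and 5178 in LSEC and 1217 and 1092 in HSC day 1. Cdh5, the cadherin of endothelial adherens junctions, was closer, at 14278, 13322 and 13983 against 6552 and 5427, a difference of 1.21. The longer cultures were below both, with 237 at day 7 and 422 at day 14. The TGF-beta co-receptor Eng did not pass (0.41, limma adjusted p = 0.067), at 9749, 10120 and 7632 in LSEC and 7233 and 6483 in HSC day 1. Vwf stayed at 275, 260 and 221 in LSEC and 201 and 186 in HSC day 1.

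Plvap was called against the list. This diaphragm protein of fenestrae and caveolae measured 1404, 1261 and 318 in LSEC and 2149 and 2293 in HSC day 1, a difference of -1.31 (SE 0.406, limma adjusted p = 0.019). The call rested on single arrays: without LSEC replicate 3 the difference was -0.70, and the call was also lost without either HSC day 1 array and in a fit of the 5 arrays alone. The caveolar genes Cav1 (1.64) and Cavin2 (1.99) were higher in LSEC, but only with respect to day 1. Cavin2 measured 851, 1053 and 422 in LSEC, 114 and 130 in HSC day 1, 1734 at day 7 and 1412 at day 14, and was 1 of 20 genes called higher in LSEC whose day 7 and day 14 values both exceeded every LSEC array.

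Transcription factors of endothelium showed a comparable split. Of 26 tested, 15 were higher in LSEC and 2 in HSC day 1, with a median of 1.43. Sox7, 1 of the SoxF factors of vascular development, measured 4633, 4338 and 2599 in LSEC and 481 and 440 in HSC day 1. Its relatives Sox17 (1.85) and Sox18 (1.81) were higher in LSEC, although Sox18 was at 415 in LSEC replicate 3 against 1807 and 1570 in the others. Hhex (2.56), Bcl6b (2.50), the ETS factor Erg (1.98), Maf (1.99) and the venous factor Nr2f2 (1.60) were also in this group. Gata4, a factor needed in both LSEC and HSC of the mouse liver, did not pass, at 2416, 3137 and 2135 in LSEC and 2100 and 2053 in HSC day 1 (0.27). Epas1, the hypoxia factor HIF-2 alpha, measured 1876, 1734 and 1393 in LSEC and 4174 and 4629 in HSC day 1 (-1.36). Klf4 (-1.48) was the other factor higher in HSC day 1. Klf2, which responds to flow in endothelium, was not called, at 306, 329 and 385 in LSEC and 501 and 561 in HSC day 1.

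**Figure D4:**
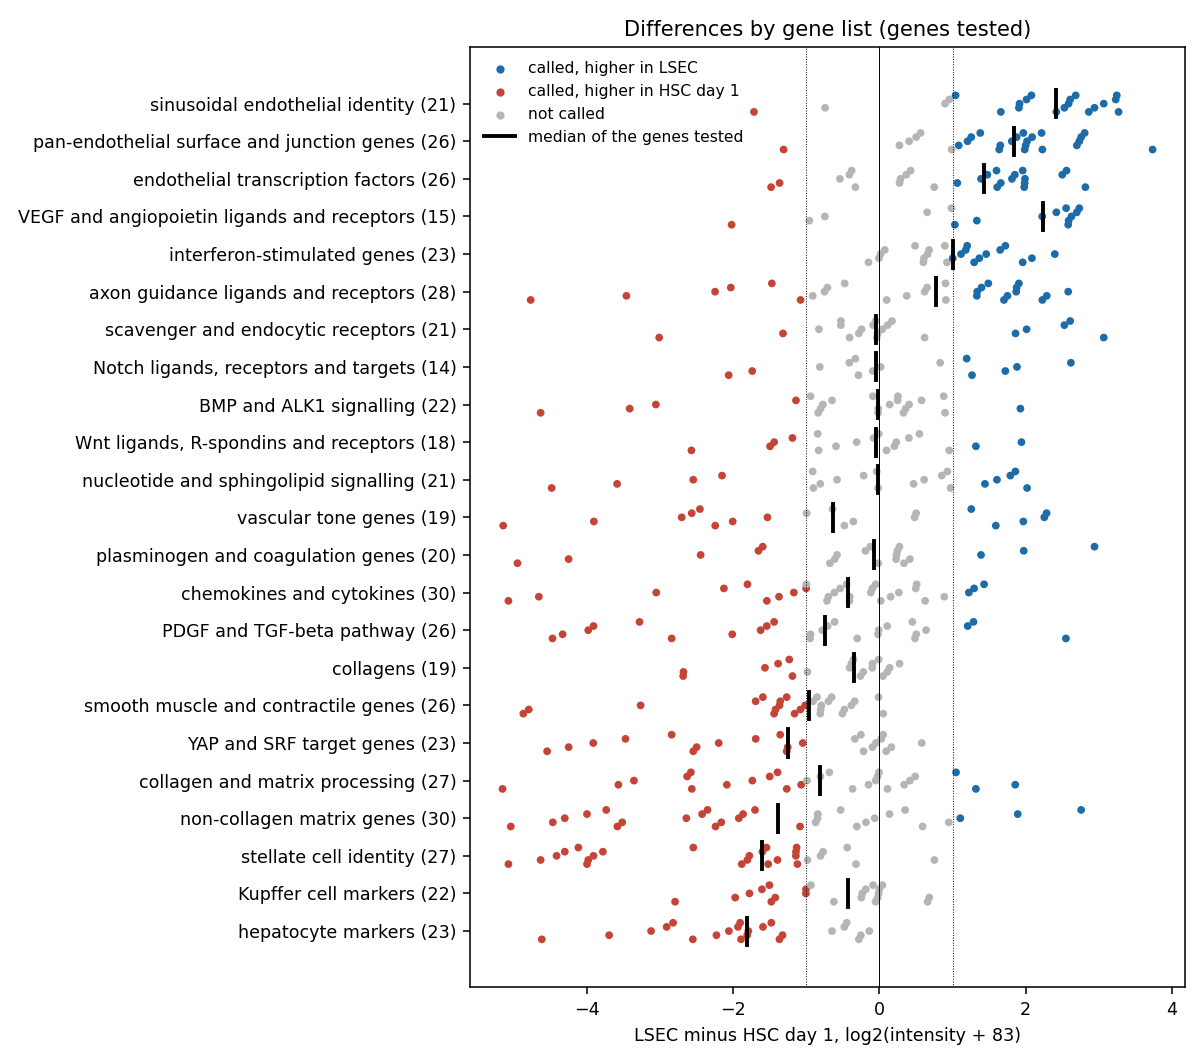
LSEC minus HSC day 1 difference on the log2(intensity + 83) scale for the tested genes of 23 lists, with the number tested in brackets, called genes in colour, uncalled genes in grey, a black bar at each list's median and dotted lines at 1 and -1. Medians run from 2.42 (sinusoidal endothelial identity) to -1.81 (hepatocyte markers), and lists such as BMP, Notch and sphingolipid genes have medians near 0 with called genes on both sides.

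Ligands and receptors of the VEGF and angiopoietin systems, which govern vessel growth and stability, were mostly on the LSEC side. Of 15 tested, 10 were higher in LSEC and 1 in HSC day 1, with a median of 2.23. All 3 VEGF receptors were among them, namely Flt4 (2.59), Kdr (2.42) and Flt1 (1.03), of which Flt1 missed the threshold without LSEC replicate 1 (0.93) or LSEC replicate 2 (0.98), with the pooled median as pseudocount (0.92) and after quantile normalization (0.99). Kdr, the main signalling receptor for VEGF-A, measured 3747, 3519 and 1422 in LSEC and 414 and 449 in HSC day 1. The co-receptors Nrp2 (2.58) and Nrp1 (1.33) went with them. Among ligands, Angpt2, the context-dependent ligand of Tek, measured 5306, 4704 and 4927 in LSEC and 1080 and 921 in HSC day 1 (2.23). Pgf (2.55) and Apln (2.63) were likewise higher in LSEC. Vegfc, the ligand of Flt4, was the reverse of its receptor, at 203, 219 and 182 in LSEC and 1112 and 1028 in HSC day 1 (-2.02). Vegfa leaned the same way without passing the size threshold, at 894, 925 and 1431 in LSEC and 2024 and 2253 in HSC day 1 (-0.96), and was called without LSEC replicate 3 (-1.16) or HSC day 1 replicate 1 (-1.03), with a pseudocount of 1 (-1.01) and after quantile normalization (-1.03).

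Through the BMP pathway the sinusoid sets hepcidin and iron balance. Of 22 genes of this pathway tested, 1 was higher in LSEC and 4 in HSC day 1 (7 with a pseudocount of 1), with a median of -0.02. The LSEC count is near the background share of 5.24%. Bmp6, the main endothelial inducer of hepcidin, measured 5082, 5631 and 6211 in LSEC and 1512 and 1326 in HSC day 1 (1.93). Bmp10, a circulating ligand of the ALK1 receptor, measured 71.8, 78.1 and 77.9 in LSEC and 2852 and 5207 in HSC day 1. Bmp5 (-3.41) shared that pattern, and both remained high at day 7 (3713 for Bmp10 and 2019 for Bmp5) but not at day 14 (457 and 294). The receptor Bmpr1a measured little in LSEC on its probe set, at 87.4, 142 and 140 against 1570 and 1665 in HSC day 1 (-3.06). Bmp2 missed the size threshold at 4330, 4211 and 1784 in LSEC against 1553 and 1816 in HSC day 1 (0.90), and was called without LSEC replicate 3 (1.30). Gdf2, which encodes BMP9, was not called (-0.81; -1.19 and called with a pseudocount of 1), with values from 103 to 285 over the 5 arrays.

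Notch genes, which pass signals between neighbouring cells, also fell on both sides, with 5 of 14 higher in LSEC, 2 in HSC day 1 and a median of -0.04. With the pooled median as pseudocount the LSEC count was 3. Notch4 (1.72), the endothelial receptor, and Dll4 (1.88), its endothelial ligand, were higher in LSEC, with Dll4 at 1594, 1201 and 326. Nrarp, a feedback target of the pathway, had the largest difference at 1807, 1517 and 901 in LSEC and 160 and 143 in HSC day 1 (2.62). The receptor Notch2 measured 342, 447 and 504 in LSEC and 2242 and 1859 in HSC day 1 (-2.06), and the ligand Jag1 was higher in HSC day 1 as well (-1.74). Other targets, Hes1 (-0.29) and Hey1 (-0.33), were not called, and Hes1 stood at 0.12 without HSC day 1 replicate 2.

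Wnt ligands and R-spondins of the sinusoid maintain the zonation of hepatocytes. Of 18 such genes and receptors, 2 were higher in LSEC and 4 in HSC day 1 (2 with the pooled median as pseudocount), with a median of -0.04. Beside background shares of 5.24% toward LSEC and 5.6% toward HSC day 1, counts of 2 say little about the list. Rspo3, which amplifies Wnt signals, measured 409, 358 and 300 in LSEC and 1977 and 3177 in HSC day 1 (-2.57). Znrf3, a ubiquitin ligase that clears Wnt receptors, was higher in HSC day 1 (-1.44). Fzd4 (1.94) and Fzd6 (1.32) were the receptors higher in LSEC. Wnt2, a ligand of endothelium, was not called (0.95), at 446, 514 and 974 in LSEC and 284 and 266 in HSC day 1, and was called without LSEC replicate 1 (1.15) or LSEC replicate 2 (1.06) and with a pseudocount of 1 (1.14). Wnt9b stayed between 295 and 341 on all 5 arrays.

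Genes that set vascular tone were called on both sides. Of 19 tested, 5 were higher in LSEC and 8 in HSC day 1, with a median of -0.64. Nos3, the endothelial nitric oxide synthase, measured 927, 1131 and 774 in LSEC and 187 and 167 in HSC day 1 (1.97). The nitric oxide receptor subunits were on the opposite side, with Gucy1b1 at 54.6, 46.5 and 43.4 in LSEC and 665 and 723 in HSC day 1 (-2.57) and Gucy1a1 at -2.25. Edn1 (2.29), the endothelin that contracts stellate cells, was higher in LSEC, and so was the receptor Ednrb (1.59), at 7315, 8071 and 10152 against 2466 and 3053. The natriuretic peptide receptors also split, with the guanylyl cyclase Npr1 higher in LSEC (2.25) and the clearance receptor Npr3 at 140, 142 and 150 in LSEC and 3021 and 3631 in HSC day 1 (-3.90). Agtr1a, the angiotensin receptor (-2.01), and Rgs5, a pericyte brake on G protein signals (-2.70), were higher in HSC day 1.

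Receptors for sphingosine phosphate were called on both sides as well. S1pr1, which stabilises endothelial junctions, measured 7201, 7377 and 8367 in LSEC and 1946 and 1704 in HSC day 1 (2.02). S1pr3 measured 295, 263 and 197 in LSEC and 6729 and 7995 in HSC day 1 (-4.48). The transporter Spns2 (1.61) was higher in LSEC, while the kinase Sphk1 (-2.15) was higher in HSC day 1. Over the nucleotide and sphingolipid list, 5 of 21 genes were higher in LSEC and 4 in HSC day 1, with a median of -0.02. P2ry14, a receptor for UDP-sugars, measured 121, 127 and 118 in LSEC and 2233 and 2528 in HSC day 1 (-3.59), and Nt5e, the ectonucleotidase CD73 of stellate cells, was also on the HSC side (-2.54). P2rx7 was higher in LSEC (1.44), with LSEC replicate 3 highest at 2829 against 877 and 1329.

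Turning to stellate identity, the PDGF receptors were called with wide margins. Pdgfrb measured 150, 132 and 121 in LSEC and 3176 and 3531 in HSC day 1 (-3.98), and Pdgfra differed by -3.91. The intermediate filament Des (-3.78), the mesenchymal transcription factor Foxf1 (-4.41), the matrix protein Reln (-4.12) and the proteoglycan Dcn (-4.30) were higher in HSC day 1. Dcn measured 823, 760 and 181 in LSEC and 11557 and 11402 in HSC day 1, so LSEC replicate 3 lay lowest for a stellate gene as well. The factors Lhx2 (-1.78), which holds HSC quiescent, and Tcf21 (-1.52) were called at lower levels, with Tcf21 at 557 and 483 in HSC day 1. Lrat, the enzyme that esterifies retinol, did not reach the size threshold, at 107, 125 and 105 in LSEC and 257 and 354 in HSC day 1 (-0.98), and was called without LSEC replicate 2 (-1.03) or HSC day 1 replicate 1 (-1.16) and with a pseudocount of 1 (-1.42). The lipid droplet protein Plin2 leaned toward LSEC, at 3334, 3730 and 3539 against 2130 and 1998 (0.75).

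Genes of retinoid handling and lipid droplets gave no single direction, with 3 of 26 higher in LSEC, 4 in HSC day 1 and a median of 0.30. Aldh1a1, a retinaldehyde dehydrogenase, measured 123, 92.7 and 93.1 in LSEC and 806 and 870 in HSC day 1 (-2.31). Rdh10 (-1.46), which makes retinaldehyde, was higher in HSC day 1. Dhrs3, which reduces retinaldehyde back to retinol, went the other way at 2754, 5940 and 2417 in LSEC and 591 and 718 in HSC day 1 (2.25). The retinol carrier Rbp4 (-2.46) was 1636 and 589 in HSC day 1 and 14172 on average in hepatocytes, the same order of the HSC arrays as for Alb.

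Contractile genes were called in HSC day 1 alone. Of 26 tested, 13 were higher in HSC day 1 and 0 in LSEC, with a median of -0.96. Acta2, the usual marker of activated HSC, measured 278, 229 and 183 in LSEC and 7461 and 9745 in HSC day 1, and Tagln measured 202, 157 and 143 in LSEC and 6697 and 7734 in HSC day 1. Myl9, the regulatory light chain of myosin, measured 121, 107 and 86.3 in LSEC and 1375 and 2137 in HSC day 1 (-3.27). Further members were already well above the floor in LSEC and differed less, such as Cald1 (-1.69), Cnn2 (-1.59), Vcl (-1.27) and the transcription factor Srf (-1.36), with Srf at 1028, 991 and 1008 in LSEC and 2625 and 2805 in HSC day 1. Late smooth muscle genes had their higher values in the longer cultures. Myh11 was not called (-0.85; -1.12 and called without HSC day 1 replicate 1, -1.14 and called with a pseudocount of 1), at 287 and 457 in HSC day 1 against 2824 at day 7 and 2849 at day 14. Actg2 (-1.16; -0.79 and uncalled with the pooled median as pseudocount) measured 341 and 408 at day 1, then 4906 and 7193.

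Many contractile genes are known targets of serum response factor, which binds the CArG box. Exact matches to CCWWWWWWGG, where W is A or T, were sought on both strands in the 250 bases before the RefSeq gene start (GRCm38.p6). Variants of the box with a mismatch were not counted, so a gene without a match, such as Acta2, may still hold one. Of the 11 contractile genes called in HSC day 1 that had such a window, 4 held a match, namely Cnn2, Myl9, Srf and Vcl. That is 36.4%, against 17.4% of the 23 tested members with a window and 1.62% of all 27025 genes with one. Among all genes called higher in HSC day 1, 3.38% of the 503 with a window held a match. Since the list holds known targets, its excess over all genes is no result of these data. The windows of Myl9 (chr2:156775214-156775463, plus strand), Cnn2 (chr10:79988350-79988599, plus strand) and Srf (chr17:46556163-46556412, minus strand) follow, 5′ to 3′ on the gene's strand, since these genes moved together and their boxes differ in number and place. Capitals mark the CArG box.
Myl9: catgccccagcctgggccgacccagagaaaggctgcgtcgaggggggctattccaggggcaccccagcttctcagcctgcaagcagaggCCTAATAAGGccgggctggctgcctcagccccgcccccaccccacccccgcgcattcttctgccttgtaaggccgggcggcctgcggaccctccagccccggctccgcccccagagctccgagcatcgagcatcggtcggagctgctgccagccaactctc
Cnn2: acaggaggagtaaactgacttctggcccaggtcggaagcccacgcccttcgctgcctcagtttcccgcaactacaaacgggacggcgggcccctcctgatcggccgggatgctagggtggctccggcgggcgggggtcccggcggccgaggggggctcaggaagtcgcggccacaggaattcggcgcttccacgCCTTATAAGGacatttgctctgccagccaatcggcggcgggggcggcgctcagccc
Srf: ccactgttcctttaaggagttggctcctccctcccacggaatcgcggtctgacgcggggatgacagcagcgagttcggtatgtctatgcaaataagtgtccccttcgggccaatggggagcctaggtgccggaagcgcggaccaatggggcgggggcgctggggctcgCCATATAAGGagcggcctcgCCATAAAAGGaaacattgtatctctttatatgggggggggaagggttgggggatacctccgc
The box begins 161 bases before the start in Myl9, 56 bases before it in Cnn2, and at 82 and 62 bases before it in Srf. These matches are letters in a window and do not show binding.

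Targets of YAP and SRF, the transcriptional arms that respond to a stiff surface, gave 13 of 23 genes higher in HSC day 1 and 0 in LSEC, with a median of -1.25. Ankrd1, a standard YAP target, measured 417, 403 and 492 in LSEC and 11897 and 12128 in HSC day 1. F3, tissue factor, measured 137, 146 and 139 in LSEC and 3938 and 4421 in HSC day 1 (-4.25). Axl (-3.91), Fstl1 (-3.47) and Tgfb2 (-2.84) came next. The CCN proteins were high in both groups, with Ccn1 at 1854, 1541 and 3005 in LSEC and 9935 and 9468 in HSC day 1 (-2.20) and Ccn2 at 8579, 8689 and 10326 against 18753 and 19321 (-1.05). Amotl2, another standard target, was not called (-0.10), with LSEC values of 632 to 824 around HSC values of 817 and 743. Egr1 (-1.25) was called but stood at -0.84 without LSEC replicate 3.

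TEAD factors, the DNA-binding partners of YAP, recognise GGAATG. On either strand of the 250-base windows it was present in 4 of the 10 called genes with a window (Ankrd1, Axl, Ccn1 and Vcl, 40%), in 42.1% of the 19 tested members with a window and in 14.4% of all genes. Since called and uncalled members held it about equally often, it does not set the called ones apart. Among contractile genes called in HSC day 1 it was present in 5 of 11, Acta2 among them. The CArG and GGAATG searches were separate, and Vcl held a match to each. The windows of Ankrd1 (chr19:36119845-36120094, minus strand) and Acta2 (chr19:34255374-34255623, minus strand), which belong to the largest differences toward HSC day 1, are given with GGAATG in capitals.
Ankrd1: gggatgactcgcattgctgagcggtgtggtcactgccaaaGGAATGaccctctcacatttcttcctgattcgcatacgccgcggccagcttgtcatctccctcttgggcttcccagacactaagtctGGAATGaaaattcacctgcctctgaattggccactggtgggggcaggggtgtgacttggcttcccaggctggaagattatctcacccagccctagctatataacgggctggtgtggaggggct
Acta2: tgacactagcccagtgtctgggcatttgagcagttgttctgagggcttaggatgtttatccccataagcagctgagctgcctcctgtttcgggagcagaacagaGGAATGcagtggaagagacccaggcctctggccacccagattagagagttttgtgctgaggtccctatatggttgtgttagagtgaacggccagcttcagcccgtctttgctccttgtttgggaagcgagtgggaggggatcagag
The motif begins 210 and 123 bases before the start in Ankrd1 and 146 bases before it in Acta2.

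Collagens form the scar matrix laid down by activated HSC. Of 19 collagens, 6 were higher in HSC day 1 and 0 in LSEC, with a median of -0.35. Col1a1 measured 348, 349 and 335 in LSEC and 935 and 905 in HSC day 1 (-1.23), then 6807 at day 7 and 11780 at day 14. Col1a2 (-1.19) measured 711 and 674, then 4020 and 9861, and was at -0.93 and uncalled with the pooled median as pseudocount. The larger differences were those of Col12a1 (-2.68) and Col14a1 (-2.68), which coat fibrils. Col14a1 measured 1212 and 2750 in the HSC day 1 arrays against 195 to 234 in LSEC. Col8a1 (-1.56) and Col5a2 (-1.39) were the remaining calls. Col6a3 lay just short of the size threshold (-0.98), at 193, 166 and 165 in LSEC and 417 and 435 in HSC day 1. Col3a1 was not called (-0.35), at 342 and 323 in HSC day 1 against 235 to 252 in LSEC. The basement membrane chain Col4a1 was not called, with 1714, 1828 and 1491 in LSEC around 1535 and 2097 in HSC day 1 (-0.10).

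The other matrix genes were called on both sides. Of 30 tested, 16 were higher in HSC day 1 and 3 in LSEC, with a median of -1.39, beside 5.6% and 5.24% of all genes. Tnc, tenascin C, measured 690, 458 and 244 in LSEC and 10915 and 11697 in HSC day 1 (-4.47). Fn1 (-3.73) and Thbs1 (-3.52) were also higher in HSC day 1, with fibronectin at 6201 and 6432 there and 6737 on average in hepatocytes. The 3 LSEC members belong to the vessel wall. Mmrn2, an endothelial multimerin, measured 5306, 5281 and 4596 in LSEC and 741 and 616 in HSC day 1 (2.76). Lama4 (1.89), the laminin chain of vessels, and Lama5 (1.11; 0.90 and uncalled with the pooled median as pseudocount) were the others. Sparc was high in both groups and not called (0.14), at 13137, 12907 and 12363 in LSEC and 11697 and 11552 in HSC day 1.

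Enzymes that process matrix went largely with HSC day 1, at 12 of 27 genes against 3 higher in LSEC, with a median of -0.81. After Lox, the protease inhibitor Timp1 measured 210, 198 and 122 in LSEC and 2794 and 3129 in HSC day 1 (-3.57), and the gelatinase Mmp2 differed by -3.36. Plod2 (-2.63), which hydroxylates collagen for crosslinking, and the collagenase Mmp13 (-2.58) were also higher in HSC day 1. Mmp14, the membrane-bound activator of Mmp2, was the reverse at 4563, 4263 and 4188 in LSEC and 1763 and 1617 in HSC day 1 (1.32). Adamts4 (1.86) and Adamts9 (1.05) were higher in LSEC too, although Adamts9 was at 0.87 and uncalled without LSEC replicate 1 and at 0.95 with the pooled median as pseudocount.

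Genes of the PDGF and TGF-beta families were called on both sides. Of 26 tested, 3 were higher in LSEC and 10 in HSC day 1, with a median of -0.74. Pdgfb, the ligand that recruits pericytes, measured 2173, 2156 and 784 in LSEC and 586 and 590 in HSC day 1 (1.29), opposite to its receptor Pdgfrb. Pdgfd (1.21) was higher in LSEC as well, but measured 1173 at day 7 in HSC against 389 to 416 in LSEC, and was at 0.83 and uncalled with the pooled median as pseudocount. The inhibin subunits differed in direction, with Inhbb at 1942, 1807 and 1023 in LSEC and 192 and 194 in HSC day 1 (2.55) and Inhba at 346, 319 and 181 in LSEC and 7026 and 7182 in HSC day 1 (-4.33). Of the TGF-beta ligands, Tgfb3 and Tgfb2 were higher in HSC day 1, whereas Tgfb1 was not called (-0.02), with 3157, 3247 and 2350 in LSEC overlapping 3156 and 2717. The receptor Tgfbr2 differed by 0.50, below the size threshold.

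Guidance molecules first known from axons had 12 of 28 genes higher in LSEC and 6 in HSC day 1, with a median of 0.78. The Slit receptors were split by paralogue. Robo4, the endothelial form, measured 5735, 5166 and 3378 in LSEC and 962 and 892 in HSC day 1 (2.23), and Robo1 (1.40) was higher in LSEC as well, in contrast to Robo2. The semaphorin receptors Nrp2, Plxnc1 (1.91) and Plxna2 (2.29) were higher in LSEC, with Plxna2 at 3842, 3518 and 3703 against 751 and 632. Plxna1 was higher in HSC day 1 (-1.08), a call lost without LSEC replicate 1 (-0.99) or HSC day 1 replicate 2 (-0.97). Of the semaphorin ligands, Sema3d (-3.46), Sema3a (-2.25) and Sema6d (-2.03) were higher in HSC day 1. Sema3d measured 109, 93.3 and 82.1 in LSEC and 1834 and 1901 in HSC day 1. Others were higher in LSEC, including Sema6b (1.88), Sema3f (1.87), Sema4c (1.75) and Sema6a (1.70).

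Genes of coagulation and plasminogen had 3 of 20 higher in LSEC and 5 in HSC day 1, with a median of -0.07. F8, for which LSEC are the main source in liver, measured 6966, 5639 and 3999 in LSEC and 511 and 775 in HSC day 1. Pros1, the anticoagulant protein S, was higher in LSEC (1.97), as was the plasminogen activator Plau (1.39). On the HSC side stood Serpinb2, the trigger F3, Serpinf1 (-2.44), the plasminogen-binding annexin Anxa2 (-1.65) and Thbd (-1.59). Thbd, the thrombin receptor thrombomodulin of endothelium, was higher in the stellate arrays at 6081 and 5103 against 1168, 1845 and 2636 in LSEC. The activator Plat stayed between 183 and 235 on all 5 arrays.

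Of 30 chemokines and cytokines, 3 were higher in LSEC (0 with the pooled median as pseudocount) and 9 in HSC day 1, with a median of -0.43. Cxcl12, which retains leukocytes and stem cells, measured 170, 152 and 131 in LSEC and 8069 and 7495 in HSC day 1. Cxcl14 (-3.05), the alarmin Il33 (-2.13) and the macrophage factor Csf1 (-1.80) were also higher in HSC day 1. Csf1 had a clear LSEC level of 2279, 2875 and 2024 against 8255 and 8705. Toward LSEC, Tnfsf10 (1.43) and Cxcl9 (1.30) were called, both at 0.98 and uncalled with the pooled median as pseudocount, with LSEC replicate 3 lowest for both at 180 and 417. Tnf (1.22) was the other call toward LSEC, at 550, 768 and 613 there and 230 and 222 in HSC day 1. Its Kupffer mean of 4725 was above both. Il6 was just short of the size threshold (-0.999), at 38.0 to 55.2 in LSEC and 138 and 219 in HSC day 1, near the floor of the scale. It was called without LSEC replicate 1 (-1.05) or HSC day 1 replicate 1 (-1.22) and with a pseudocount of 1 (-1.90).

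Of 24 adhesion molecules and integrins, 6 were higher in LSEC (3 with the pooled median as pseudocount) and 7 in HSC day 1, with a median of -0.22. N-cadherin, Cdh2, measured 252, 306 and 143 in LSEC and 4077 and 3873 in HSC day 1 (-3.71), opposite to Cdh5. The hyaluronan receptor Cd44 (-3.37) lay opposite to Lyve1 and Stab2, at 238, 215 and 188 in LSEC and 3136 and 2813 in HSC day 1. The vitronectin integrin chain Itgb5 (-2.55) was higher in HSC day 1, and the laminin integrin chain Itga6 (1.86) and the tetraspanin Cd9 (1.49) in LSEC. Vcam1 lay at the threshold uncalled (0.99), with 2984, 2852 and 3590 in LSEC and 1442 and 1632 in HSC day 1, and was called without LSEC replicate 1 (1.02), LSEC replicate 2 (1.05) or HSC day 1 replicate 2 (1.07) and with a pseudocount of 1 (1.03).

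Interferon-stimulated genes, the antiviral response set, were called toward LSEC alone. Of 23 tested, 12 were higher in LSEC and 0 in HSC day 1, with a median of 1.00 and summed levels of 29316, 26370 and 18933 in LSEC and 8302 and 9769 in HSC day 1. Ifit3 measured 2788, 1862 and 948 in LSEC and 243 and 271 in HSC day 1 (2.40, limma adjusted p = 0.0004). Usp18 (2.09), the feedback protease of the pathway, and Irf7 (1.96), its amplifying factor, were higher in LSEC too. So were Oasl2 (1.72), Rsad2 (1.65) and Bst2 (1.46). LSEC replicate 3 was the lowest for each of these 6. The level was not particular to LSEC among fresh cells, since Kupffer cells had 2410 for Ifit3 and 4253 for Irf7 and hepatocytes had 2822 for Rsad2. Some members showed no difference, such as Oas2 (-0.15), at 158 to 223 in LSEC and 191 and 243 in HSC day 1 but 4759 in Kupffer cells.

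The factor complex of interferon signalling binds a site whose core is a pair of GAAA copies on 1 strand with any 2 bases between them. On either strand of the 250-base windows it was present in 6 of the 10 called genes with a window (Bst2, Ifit1, Ifit3, Irgm1, Rsad2 and Stat2, 60%), in 52.9% of the 17 tested members with a window and in 3.46% of all genes. The called members thus held it about as often as the list as a whole. Windows of Ifit3 (chr19:34583279-34583528, plus strand), Rsad2 (chr12:26456453-26456702, minus strand) and Ifit1 (chr19:34640639-34640888, plus strand) are shown because they carry the core once or in a pair, with the core in capitals as it reads on the gene's strand.
Ifit3: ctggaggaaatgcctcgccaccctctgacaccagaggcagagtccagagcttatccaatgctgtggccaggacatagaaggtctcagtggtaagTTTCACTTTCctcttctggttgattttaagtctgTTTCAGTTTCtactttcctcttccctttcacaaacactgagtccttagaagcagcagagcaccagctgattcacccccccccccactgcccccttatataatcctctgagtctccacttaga
Rsad2: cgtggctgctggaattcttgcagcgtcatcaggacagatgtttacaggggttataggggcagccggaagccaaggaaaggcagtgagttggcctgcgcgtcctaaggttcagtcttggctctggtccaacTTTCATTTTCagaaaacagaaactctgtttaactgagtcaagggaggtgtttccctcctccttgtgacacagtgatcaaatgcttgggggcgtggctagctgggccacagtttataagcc
Ifit1: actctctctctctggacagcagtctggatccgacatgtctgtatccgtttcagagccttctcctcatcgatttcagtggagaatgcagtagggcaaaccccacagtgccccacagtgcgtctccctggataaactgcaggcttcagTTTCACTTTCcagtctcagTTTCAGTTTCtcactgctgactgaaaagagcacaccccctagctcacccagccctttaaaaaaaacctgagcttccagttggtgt
All 5 matches in these windows lie on the strand opposite to the gene. They begin 156 and 122 bases before the start in Ifit3, 120 bases in Rsad2, and 104 and 85 bases in Ifit1. Ifit1 itself measured 1103, 890 and 744 in LSEC and 300 and 410 in HSC day 1 (1.18), a call lost without HSC day 1 replicate 1 (1.00, limma adjusted p = 0.085) and with the pooled median as pseudocount (0.97). Irgm1 (1.12) likewise lost its call without LSEC replicate 1 (0.91), LSEC replicate 2 (0.96) or HSC day 1 replicate 2 (1.04, limma adjusted p = 0.074) and with the pooled median as pseudocount (0.99).

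Of 21 genes of class I and class II antigen presentation, 1 was higher in LSEC and 3 in HSC day 1 (6 with a pseudocount of 1), with a median of -0.25. The LSEC count is near the background share of 5.24%. Tapbp (1.39), which loads class I molecules, was the LSEC gene, joined by the proteasome subunit Psmb10 (1.02) without LSEC replicate 3. The class II invariant chain Cd74 measured 236, 246 and 363 in LSEC and 1486 and 1505 in HSC day 1 (-2.13), against 13199 in Kupffer cells and 72.6 and 68.9 at days 7 and 14. H2-Aa, a class II chain, leaned the same way (-0.84) and was called with a pseudocount of 1 (-1.06). B2m, the class I light chain, was not called, at 12691, 11883 and 13063 in LSEC and 12673 and 12361 in HSC day 1.

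Markers of neighbouring mesenchymal and vascular cells were mixed. Of 12 portal fibroblast and mesothelial markers, 5 were higher in HSC day 1 and 1, the sialomucin Cd34, in LSEC, with a median of -0.66. Dpt, a dermatopontin of fibroblasts, measured 47.0, 51.0 and 43.6 in LSEC and 728 and 1058 in HSC day 1 (-2.89), then 150 and 51.9 at days 7 and 14. Mfap5 (-2.35) and Fbln2 (-2.24) had higher values in the longer cultures instead, with 3306 and 3640 for Mfap5 and 8432 and 12646 for Fbln2. The keratins Krt8 (-1.16) and Krt18 (-1.05) were called only with HSC day 1 replicate 1, and stood at -0.66 and -0.51 without it, which left 3 of the 5 calls. Krt18 was also uncalled with the pooled median as pseudocount (-0.84). Gpm6a, a mesothelial membrane protein, was called toward LSEC without LSEC replicate 3 (1.27) and with a pseudocount of 1 (1.31). The part of fibroblast or mesothelial RNA in the HSC day 1 values was not tested. Of 10 smooth muscle and pericyte markers, Des, Rgs5 and Actg2 were higher in HSC day 1, while Kcnj8, a potassium channel used as a pericyte marker, was called toward LSEC at 3751, 2218 and 1370 against 342 and 316 (2.51). The pericyte and endothelial adhesion molecule Mcam joined it without LSEC replicate 3 (1.03). Large-vessel and lymphatic markers gave 6 of 15 higher in LSEC, among them Efnb2 (1.34) and Sox17, and 4 in HSC day 1, among them Pdpn (-2.76). Prox1, the defining lymphatic factor, was at 85.9 to 121 in LSEC and 144 and 122 in HSC day 1.

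Lists of general cell programmes gave the following counts. Of 22 cell cycle genes, 1 was called toward HSC day 1 (2 with a pseudocount of 1), Ccnd1 (-1.49), a cyclin of growth factor signalling, at 612, 1123 and 339 in LSEC and 2084 and 1725 in HSC day 1. Mki67 was not called, at 114 to 146 in LSEC and 118 and 143 in HSC day 1 and measured 1146 at day 7. Endoplasmic reticulum folding genes had 1 call of 24, Kdelr3 (-1.49), with a median of -0.41, and Hspa5 below the threshold at -0.83. The main counts of the cell cycle and folding lists are near the 5.6% of all genes called higher in HSC day 1. Immediate-early and dissociation genes, which respond to tissue digestion, had 7 of 29 higher in HSC day 1 (4 with the pooled median as pseudocount) and 0 in LSEC (2 with a pseudocount of 1), with a median of -0.34. Egr2 (-2.73) and Gadd45g (-1.59) led them, whereas Fos (-0.29) and Jun (0.25) were not called, with Fos at 166 to 207 in LSEC and 241 and 259 in HSC day 1 against 4833 in Kupffer cells. Jund was called toward LSEC without LSEC replicate 3 (1.03) or HSC day 1 replicate 2 (1.02) and with a pseudocount of 1 (1.03). Glycolysis and hypoxia genes had 5 of 23 higher in LSEC and 0 in HSC day 1, with a median of 0.16. Pdk1 measured 514, 494 and 627 in LSEC and 125 and 135 in HSC day 1 (1.55), and Egln3 (1.34) and Pfkl (1.31) followed. Of 11 neural-type and glial genes, which HSC are known to share, 4 were higher in HSC day 1, including Nes (-1.88) and Reln, and Dpysl3 (1.59) was higher in LSEC. Of 6 platelet and erythroid markers, Pf4 (-1.47) was higher in HSC day 1, at 667 and 466 against 120 to 168 in LSEC.

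Endothelial genes were followed into the longer HSC cultures by value. For the 52 genes of the endothelial lists that were higher in LSEC, the median level on HSC day 1 was 20% of the LSEC mean, with a range of 6.16% to 45.6%, and it was 6.85% on the day 7 array and 7.74% on the day 14 array. These genes were picked by their call toward LSEC, so a low share on HSC day 1 follows from the selection. Uncalled list members such as Eng are left out, as are Plvap and Fcna, which were called toward HSC day 1. Both later arrays lay below both day 1 arrays for 41 of the 52 genes and above both for 8. Pecam1 is an example, at 1217 and 1092 at day 1 and 141 and 181 later. Each later time has 1 array, and the source of the day 1 level was not tested. Over all 633 genes higher in LSEC the later arrays were divided, with both later arrays below both day 1 arrays for 262 genes and above both for 237.

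Stellate identity genes were followed in the same way. For the 21 genes called higher in HSC day 1, the LSEC mean was 20.9% of the HSC day 1 level in the median, and the day 7 and day 14 arrays stood at 80.4% and 50.2%. The low LSEC share likewise follows from picking genes by their call. Both later arrays were below both day 1 arrays for 13 genes and above both for 3. Pdgfrb measured 5447 and 5278 later and Des 3769 and 4019, above both day 1 arrays, whereas Reln measured 2270 and 277 and Lhx2 711 and 303. Of all 677 genes higher in HSC day 1, 545 lay above every LSEC array at both later times. Over the same 677 genes, both later arrays were below both day 1 arrays for 310 and above both for 215.

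**Figure D5:**
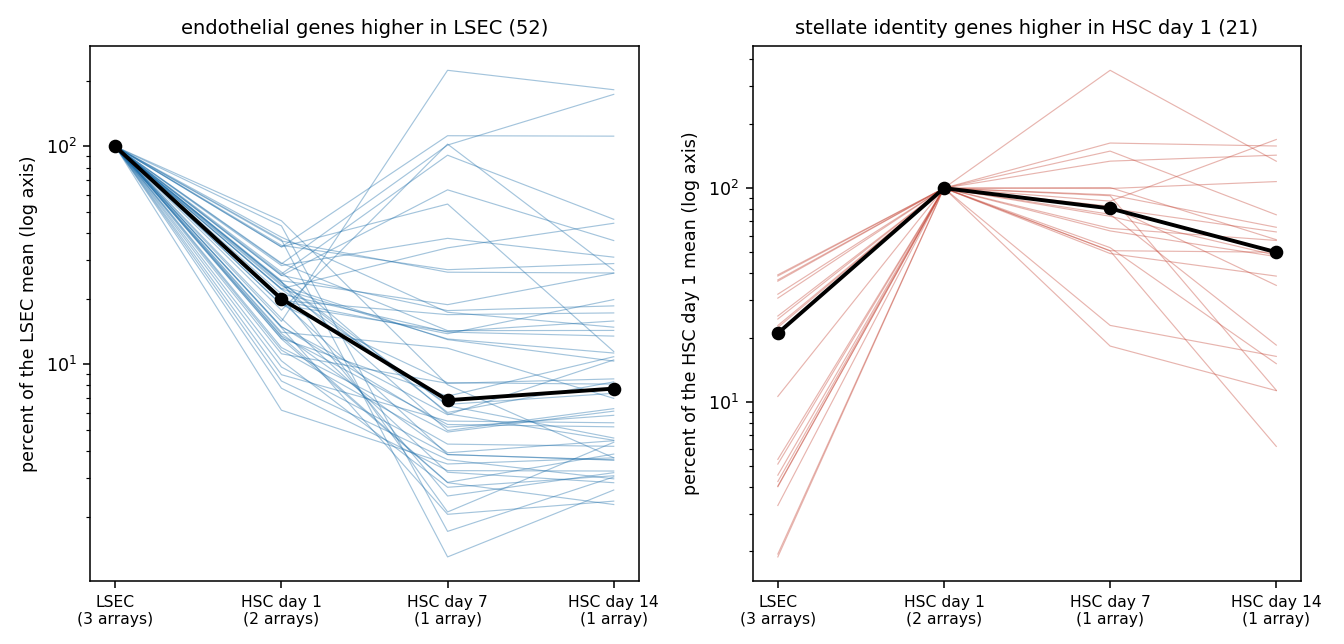
Level in LSEC, HSC day 1, HSC day 7 and HSC day 14 of 52 endothelial genes higher in LSEC, as percent of the LSEC mean (left), and of 21 stellate identity genes higher in HSC day 1, as percent of the HSC day 1 mean (right), on log axes. Thin lines are genes and only join their values, since LSEC are no time point, and the black line is the median, which stands at 20%, 6.85% and 7.74% on the left and at 80.4% and 50.2% for the last 2 points on the right.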

How the data were processed

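The authors deposited linear intensity values for 25194 probe sets on 13 arrays. Expression Console and MAS5 5.0 are named, without a role, per the submitters' processing notes; background correction and normalization are not given there. Each gene was represented by its brightest probe set among the 21181 with 1 symbol (19537 symbols), kept if it exceeded 224.5, the median of all values, in 2 or more of the 11 arrays of the 4 populations. A constant of 83 was added before taking log2. The contrast came from limma 3.58.1 in R 4.3.3 with a group mean per population, 7 residual degrees of freedom, a prior of 4.86 and two-sided tests. On simulated data for LSEC versus HSC day 1 over 12081 genes, 197 of 200 genes changed by 1.5 were recovered, 200 at 2 and 200 at 3, with 1 false call at 1.5. The simulated noise was independent between genes. It held no shift of an array shared by many genes, such as that of LSEC replicate 3, so these rates may not carry over to the real arrays. The number of arrays limits the precision. Members, lists and motifs were chosen with earlier results of these data known. Genes named were the 15 called with the largest difference in each direction, the 4 markers and, per list, up to 4 called members each way, up to 2 uncalled and any called against its list, with others chosen after their values were seen. Near-identical paralogues may share probe signal. Promoter windows come from RefSeq.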

Additional observations from a re-analysis of the deposited data

How the results depend on the processing

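All alternatives kept both counts within 1.5 times of 633 and 677. The counts higher in LSEC and in HSC day 1 were 820 and 904 with a pseudocount of 1, 446 and 495 with the pooled median as pseudocount, 584 and 675 after quantile normalization, 631 and 686 without a filter and 631 and 670 in a fit of the 5 arrays alone. Leaving out 1 array in turn gave 582 to 722 and 653 to 698. Of 210 called genes named here, not counting Tnf, 192 kept their call in every alternative. Deviations of same-numbered arrays from their group means correlated at 0.07 and 0.00, and the main fit did not pair arrays. The deviations of the 2 HSC day 1 arrays mirror each other, so these values cannot show whether animals were shared. With the replicate number as a block, 662 and 673 genes were called, of which 622 and 663 were among the 633 and 677. Among the named genes checked, those whose direction turned were uncalled, with main differences from -0.29 for Hes1 to 0.04 for Marco. With 1 array left out, B2m ranged from -0.03 to 0.04, Cldn4 from -0.19 to 0.03, Col4a1 from -0.31 to 0.12, Hes1 from -0.69 to 0.12, Marco from 0.00 to 0.08, Mki67 from -0.08 to 0.09, Onecut1 from -0.05 to 0.05, Plat from -0.07 to 0.06 and Tgfb1 from -0.12 to 0.13. After quantile normalization Onecut1 stood at 0.04 and Plat at 0.03, and with the replicate block B2m stood at -0.02 and Plat at 0.01.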
